A study of Mus musculus with 8 samples.

Results

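The genes of glycolysis, the pentose phosphate pathway and lactate handling were examined in splenic B cells from Irf4 null mice (irf4-/-, 4 arrays) and from their wild-type littermates (irf4+/+, 4 arrays). All mice were 12-week-old C57BL/6 animals, no treatment is recorded, and the labels do not describe how the allele was made. Mature B cells were obtained by magnetic removal of the other cells, and total RNA was hybridised to an Affymetrix mouse array of 45101 probe sets. Irf4 is a transcription factor that activated B cells need in order to become plasma cells. The members were 36 named genes, from the glucose transporters to pyruvate entry into the mitochondrion, the pentose phosphate enzymes and the oxygen-regulated transcription factor Hif1a. Each was read from 1 probe set, the brightest over all 8 arrays among those annotated to that gene alone. Of the 36 members, 32 had such a probe set, out of 18193 genes that had one, and 31 passed the filter on dim probe sets. Gapdh was present on control probe sets and is described apart, and no probe set was named here for Gpi1, Eno1 or G6pdx, which were not analysed here.

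Glycolysis splits glucose into pyruvate in the cytosol and yields ATP and NADH, and lactate dehydrogenase recycles the NADH when pyruvate is turned into lactate. The pentose phosphate pathway branches off at glucose 6-phosphate and supplies NADPH and ribose 5-phosphate for nucleotides. Resting B cells use little glucose, and activation by antigen or mitogens is known to raise glucose uptake, Slc2a1 and the enzymes of both pathways, partly through Myc and Hif1a.

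The 5′ flanks of 4 members are shown because Eno3 and Rpia were the members whose signals passed the test between the genotypes, and Pgk1 and Ldha are textbook targets of Hif1a that lay next to the threshold. Each sequence is the RefSeq window from 250 bases before to 50 bases after an annotated start in the build GRCm38.p6, written 5′ to 3′ on the gene's strand. Capitals mark ACGTG, a form of the core of the hypoxia response element, read on either strand (ACGTG or its reverse complement CACGT). Other forms of that core were not searched, so a window without capitals may still hold one.
Eno3 chr11:70656926-70657225 (+): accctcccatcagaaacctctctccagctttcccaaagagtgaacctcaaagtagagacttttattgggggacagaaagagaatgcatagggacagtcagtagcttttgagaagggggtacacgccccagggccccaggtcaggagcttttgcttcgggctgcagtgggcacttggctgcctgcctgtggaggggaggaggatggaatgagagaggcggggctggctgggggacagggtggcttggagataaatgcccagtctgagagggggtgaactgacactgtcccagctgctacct
Rpia chr6:70792126-70792425 (−): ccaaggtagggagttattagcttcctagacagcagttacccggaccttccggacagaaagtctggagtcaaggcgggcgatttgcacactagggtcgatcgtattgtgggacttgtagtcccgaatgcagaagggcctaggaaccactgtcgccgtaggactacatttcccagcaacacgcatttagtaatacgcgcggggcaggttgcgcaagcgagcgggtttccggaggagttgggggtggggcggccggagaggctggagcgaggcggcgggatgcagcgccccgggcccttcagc
Pgk1 chrX:106186850-106187149 (+): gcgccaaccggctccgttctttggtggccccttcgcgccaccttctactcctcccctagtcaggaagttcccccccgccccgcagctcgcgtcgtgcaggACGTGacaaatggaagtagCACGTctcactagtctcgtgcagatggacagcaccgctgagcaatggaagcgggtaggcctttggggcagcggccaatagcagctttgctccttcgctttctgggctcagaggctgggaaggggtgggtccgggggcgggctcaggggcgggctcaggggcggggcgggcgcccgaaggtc
Ldha chr7:46845554-46845853 (+): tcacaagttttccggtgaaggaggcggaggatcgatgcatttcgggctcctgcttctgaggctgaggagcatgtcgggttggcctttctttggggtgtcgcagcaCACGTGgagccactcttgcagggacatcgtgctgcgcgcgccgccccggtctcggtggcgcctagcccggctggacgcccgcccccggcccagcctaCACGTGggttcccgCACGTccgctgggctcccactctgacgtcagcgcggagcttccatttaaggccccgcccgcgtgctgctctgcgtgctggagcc

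The Eno3 and Rpia windows held no ACGTG, the Pgk1 window held 2 and the first Ldha window held 5, where each CACGTG counts once per strand. Over all members, 23 of 50 windows (46%) held ACGTG, from 20 of the 35 member genes with a window. Among all windows, 6447 of 32851 (19.6%) held it. The interferon-type element (GAAA, any 2 bases, GAAA), searched on both strands, was in 0 of the 50 windows and in 3.44% of all windows. The Ets-IRF composite (GGAA, any 2 bases, GAAA), searched likewise, was in 1 of the 50 windows (2%), that of Pdk1, and in 2.72% of all windows. These letters describe the windows and do not show binding.

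Across the series, every array had a trimmed mean signal of 500.003, median signals lay between 76.9 and 92.2, and correlations between arrays lay between 0.960 and 0.982. As a check of the labels, Irf4 signal (the brighter of its probe sets) was 285, 259, 244 and 315 in Irf4 null, against 2035, 1720, 1779 and 2341 in wild type. Whether each array stands for a separate mouse is not stated in the labels. The p-values thus reflect only the variation among these arrays, some of which may be technical. Sex is not in the labels. Xist, the RNA of the inactive X chromosome, was high (17119 to 19652) on Irf4 null array 1 and wild-type arrays 1, 3 and 4. It was low (49.2 to 94.8) on Irf4 null arrays 2, 3 and 4 and wild-type array 2. The Y-linked gene Eif2s3y went the other way, at 3.31 to 25.4 on Xist-high arrays and 3216 to 4530 on Xist-low arrays. By these genes the Xist-high arrays read as female and the Xist-low arrays as male, so sex was unequally split between the genotypes. The same 4 Xist-low arrays carried more neutrophil and macrophage RNA. The mean log2 value of 24 neutrophil and macrophage markers was 8.41, 10.1, 9.73 and 9.36 in Irf4 null and 8.21, 10.3, 8.14 and 8.09 in wild type. NK cell marker means were also higher on every Xist-low array (9.29 to 9.97) than on any Xist-high array (7.72 to 8.56). Dendritic cell marker means separated likewise, at 7.46 to 8.30 on Xist-low arrays and 7.16 to 7.35 on Xist-high arrays. T cell, erythroid and platelet marker means overlapped between Xist-high and Xist-low arrays. B cell markers were similar, with summed signals of 72970 to 78336 in Irf4 null and 68284 to 81667 in wild type, and none of the 7 tested was called. Of the 7 plasma cell markers tested, 4 were lower in Irf4 null (Sdc1, Jchain, Igha and Irf4 itself). Prdm1, Xbp1 and Mzb1 overlapped between the genotypes and were not called (limma, adjusted p = 0.621, 0.781 and 0.968). Summed over the 7, signals were 19901 to 21403 in Irf4 null and 27731 to 54419 in wild type. RNA was measured in bulk, so fewer cells of a type and less RNA per cell cannot be told apart.

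Most of the pathway differed little between the genotypes. Of the 31 members tested, 1 was higher in Irf4 null, the muscle-type enolase Eno3, where 2.01% of all 27022 probe sets tested were called higher. Lower in Irf4 null was 1 member, the ribose 5-phosphate isomerase Rpia, where 1.51% of all probe sets were called lower (limma, Benjamini-Hochberg adjusted p under 0.05 over all probe sets). The members' counts are thus close to the background. All 4 Irf4 null arrays lay above all 4 wild-type arrays for 2 members, Eno3 and Pfkfb4, against 5.48% of all probe sets, and below them for 2 members, Rpia and Aldoc, against 5.33%. Fold changes, given as log2 of Irf4 null over wild type after 16 was added to each signal, ran from -0.44 to 0.67 with a median of 0.10. The median was 0.0030 over all probe sets tested and 0.025 over the 11802 genes. Of the members, 22 were above 0 and 9 below, where 6439 of the 11802 genes were above 0 and 5363 below. An unadjusted p under 0.05 was reached by 7 of the 31 members (22.6%). This share is near the background of 17.1% of all probe sets tested and 20.4% of all genes. By step, it was reached by 3 of 4 members in lower glycolysis and 2 of 11 in upper glycolysis. Among lactate members it was 1 of 3, and among pentose phosphate members 1 of 5. No member of glucose transport or pyruvate entry reached it, nor did Hif1a. The steps were not tested as sets.

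**Figure D1:**
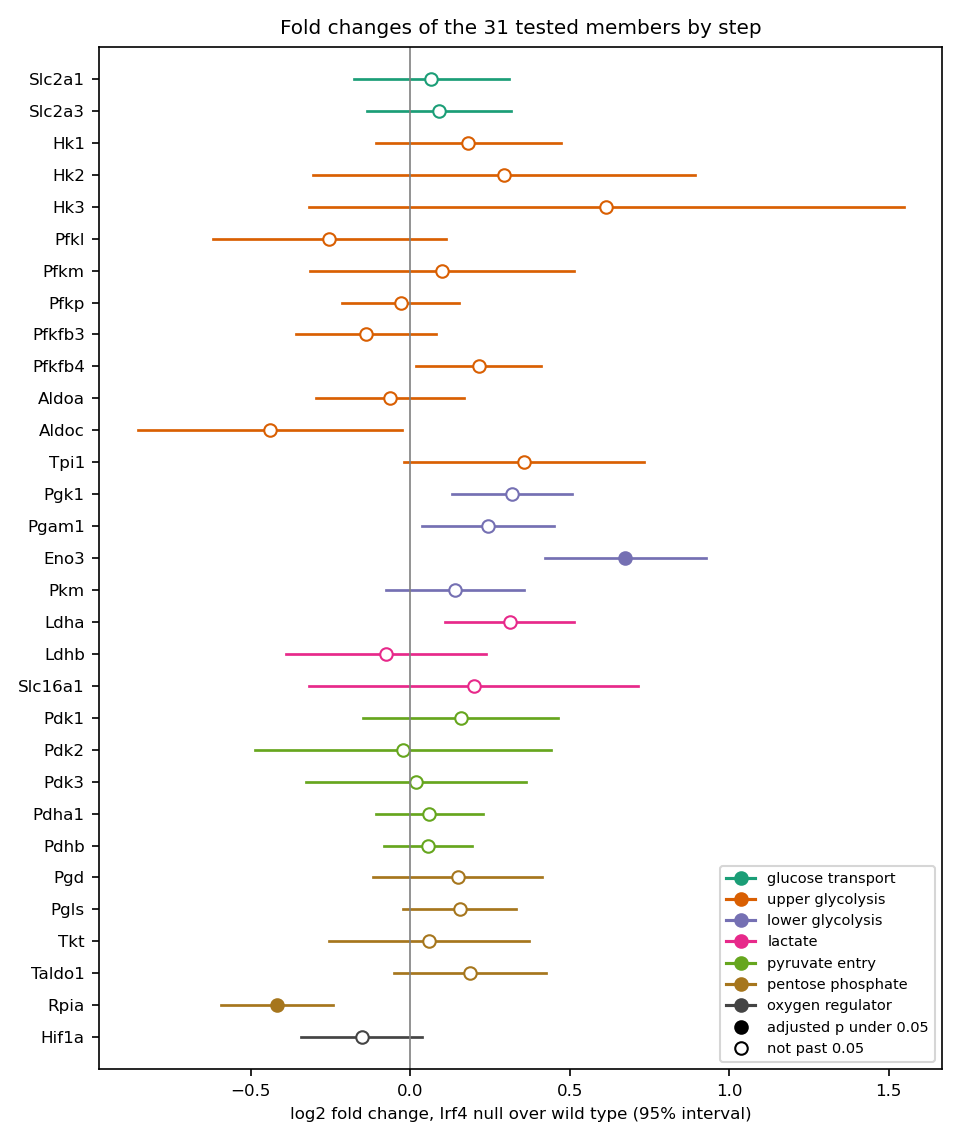
Log2 fold change of each of the 31 tested members, Irf4 null over wild type, with its 95% interval from the fit of 4 arrays a genotype, in the order of the pathway and coloured by step. Filled points mark Eno3 (0.67) and Rpia (-0.42), the members past an adjusted p of 0.05. Hk3 has the widest interval, -0.32 to 1.55.

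The intervals limit how large a change could have been missed. Of the 29 members that were not called, 28 had a 95% interval that lay inside a 2-fold change either way, the exception being Hk3. For 23 the interval lay inside a 1.5-fold change, and the exceptions there were Hk2, Hk3, Pfkl, Aldoc, Tpi1 and Slc16a1. These intervals do not show that the levels were equal.

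Glucose enters B cells through the facilitative transporters Slc2a1 (GLUT1) and Slc2a3 (GLUT3). Slc2a1 read 4016, 3736, 2975 and 2933 in Irf4 null, against 3194, 3567, 3013 and 3177 in wild type. The Irf4 null arrays held both the highest and the lowest of the 8 values, and the log2 fold change was 0.07 ± 0.11 (SE; adjusted p = 0.821). Slc2a3 read 2999, 2628, 2961 and 2306 in Irf4 null, against 2667, 2225, 2577 and 2741 in wild type. These values overlapped too, with a log2 fold change of 0.09 ± 0.10 (adjusted p = 0.722). The Slc2a3 probe set can also bind related transcripts, as its design suffix states.

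Hexokinases trap glucose in the cell by phosphorylation, and Hk2 and Hk3 had the widest intervals of all tested members. Hk1, the form found in most tissues, read 1011, 936, 1119 and 794 in Irf4 null, against 849, 1027, 792 and 728 in wild type, and did not pass (log2 fold change 0.18, adjusted p = 0.544). Hk2, the form induced by growth signals, read 388, 596, 428 and 695 in Irf4 null, against 324, 749, 301 and 402 in wild type. Wild-type array 2 was above every Irf4 null array, and the log2 fold change was 0.29 ± 0.27 (adjusted p = 0.649). Hk3, which is typical of myeloid cells, read 217, 650, 484 and 582 in Irf4 null, against 200, 714, 260 and 177 in wild type. Irf4 null array 1 sat with the low wild-type arrays and wild-type array 2 was the highest of all, and the log2 fold change of 0.62 ± 0.42 did not pass (adjusted p = 0.519).

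The phosphofructokinases commit glucose to glycolysis, and the Pfkfb enzymes make and remove fructose 2,6-bisphosphate, which activates them. The 3 subunit genes gave log2 fold changes of -0.25 for Pfkl (adjusted p = 0.491), 0.10 for Pfkm (0.844) and -0.03 for Pfkp (0.904). Pfkp had the smallest error of the 3 and read 1195 to 1374 in Irf4 null and 1209 to 1378 in wild type. Pfkfb3 read 743 to 946 in Irf4 null and 837 to 978 in wild type (log2 fold change -0.14, adjusted p = 0.540). Pfkfb4 read 658, 637, 689 and 638 in Irf4 null, against 576, 580, 581 and 515 in wild type. Every Irf4 null value was above every wild-type value, yet the difference of 0.21 ± 0.09 on the log2 scale did not pass (adjusted p = 0.242).

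Aldolases split fructose 1,6-bisphosphate, and Tpi1 interconverts the resulting triose phosphates. Aldoa, the main form of blood cells, read 4873 to 6357 in Irf4 null and 5267 to 6770 in wild type (log2 fold change -0.06, adjusted p = 0.818). It has 4 further probe sets, of which 1 had the same sign and none was called. Aldoc, the form known from brain, read 361, 204, 415 and 340 in Irf4 null, against 420, 419, 499 and 426 in wild type. The groups did not overlap, but Irf4 null array 3 and wild-type array 2 differed by little, and the log2 fold change of -0.44 ± 0.19 did not pass (adjusted p = 0.258). Tpi1 read 1678, 2236, 1681 and 1960 in Irf4 null, against 1514, 1984, 1042 and 1454 in wild type, with wild-type array 2 inside the Irf4 null range (log2 fold change 0.36 ± 0.17, adjusted p = 0.324). Over the 11 members of upper glycolysis the median was 0.10, with 6 above 0 and 5 below.

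The 4 tested members of lower glycolysis, which turn triose phosphates into pyruvate, were all above 0, with a median log2 fold change of 0.28. Enolases make phosphoenolpyruvate, and Eno3 is the form known from skeletal muscle. Eno3 read 643, 628, 793 and 684 in Irf4 null, against 412, 374, 427 and 484 in wild type. The lowest Irf4 null array was well above the highest wild-type array. It averaged 687 ± 74.4 in Irf4 null and 424 ± 45.8 in wild type (SD, n = 4 each), a fold of 1.60 and a log2 fold change of 0.67 ± 0.11 (95% interval 0.42 to 0.93; limma, adjusted p = 0.00933). Eno3 has a single probe set here, so no second one bears on the value.

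Rpia makes ribose 5-phosphate from ribulose 5-phosphate in the nonoxidative branch of the pentose phosphate pathway. Its signal was 2868, 2611, 2865 and 2569 in Irf4 null, against 3548, 4003, 3320 and 3757 in wild type. Every Irf4 null array was below every wild-type array. The means were 2728 ± 161 in Irf4 null and 3657 ± 292 in wild type (SD, n = 4 each), which is 0.748 times the wild-type level and a log2 fold change of -0.42 ± 0.08 (95% interval -0.59 to -0.24; limma, adjusted p = 0.0164). The call was lost on leaving out Irf4 null array 2 (adjusted p = 0.0601), Irf4 null array 4 (0.0579) or wild-type array 4 (0.0583). Rpia also has a single probe set. The summed plasma cell markers separated the genotypes as given above, though Prdm1, Xbp1 and Mzb1 did not do so singly. Summed platelet and megakaryocyte markers also separated the genotypes, at 3794 to 6027 in Irf4 null and 2496 to 3432 in wild type. Of these, 1 of 6 (Ppbp) was called higher. The part of either in the Eno3 and Rpia values was not tested.

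**Figure D2:**
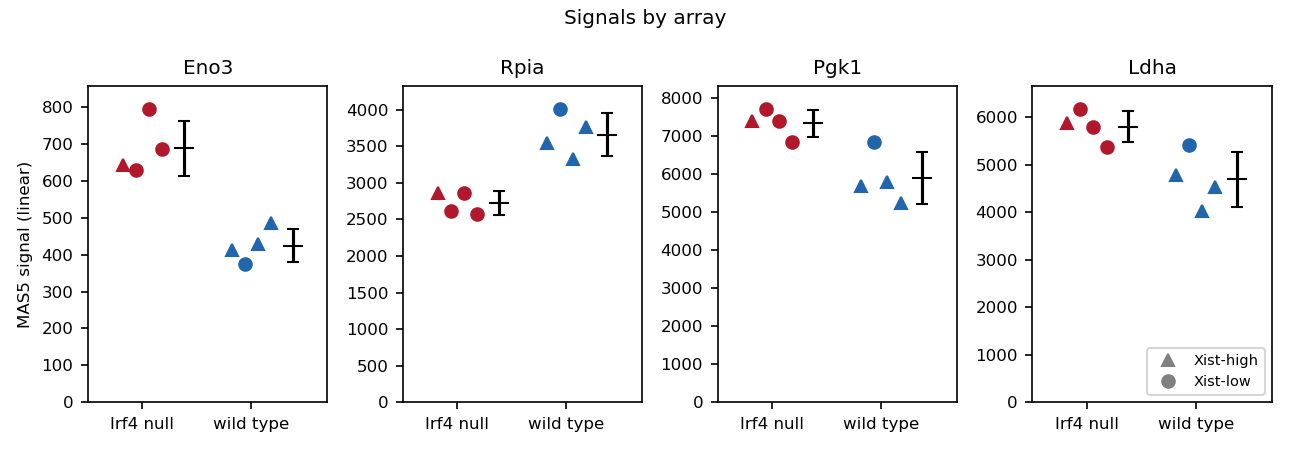
Linear MAS5 signal of Eno3, Rpia, Pgk1 and Ldha on each array, Irf4 null left of wild type, with the mean and SD (n = 4) beside the points. Triangles are Xist-high arrays and circles Xist-low arrays. Eno3 and Rpia separate the genotypes, while wild-type array 2, the single wild-type circle, lies inside the Irf4 null range for Pgk1 (6851) and Ldha (5414).

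Pgk1, which makes ATP from 1,3-bisphosphoglycerate, read 7399, 7702, 7403 and 6836 in Irf4 null, against 5695, 6851, 5798 and 5240 in wild type. Wild-type array 2 alone exceeded the lowest Irf4 null array. The log2 fold change was 0.32 ± 0.09 (adjusted p = 0.0715), and the other 2 probe sets of the gene had the same sign without a call. Ldha, the lactate dehydrogenase subunit that favours lactate formation, read 5875, 6169, 5798 and 5383 in Irf4 null, against 4793, 5414, 4036 and 4542 in wild type. Again only wild-type array 2 entered the Irf4 null range, and the log2 fold change was 0.31 ± 0.09 (adjusted p = 0.0964). Pgam1, the phosphoglycerate mutase, read 2759, 2845, 2501 and 2763 in Irf4 null, against 2254, 2698, 2024 and 2231 in wild type. Here too wild-type array 2 exceeded the lowest Irf4 null array, with a log2 fold change of 0.24 ± 0.09 (adjusted p = 0.203). Pkm, the pyruvate kinase of the last step, read 867, 986, 970 and 990 in Irf4 null, against 847, 1008, 800 and 811 in wild type, and did not pass (log2 fold change 0.14, adjusted p = 0.533).

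Gapdh was measured by 3 control probe sets, which were left out of the test with the other controls. Further probe sets listed Gapdh beside other symbols, and these were tested without a call. The brightest of them read 7618 to 9506 in Irf4 null and 6521 to 8855 in wild type (limma, log2 fold change 0.16, adjusted p = 0.513). The 5′ control set read 6124, 7843, 6751 and 6867 in Irf4 null, against 5941, 7694, 5548 and 6267 in wild type, so the groups overlapped. With the controls kept in the fit, an alternative added after the data were seen, the log2 fold changes were 0.19 for the 3′ set (adjusted p = 0.307), 0.12 for the 5′ set (0.634) and 0.22 for the middle set (0.407). The ratio of 3′ to 5′ Gapdh signal, a measure of RNA integrity, was 0.889 to 1.02 in Irf4 null and 0.854 to 0.921 in wild type. For Actb it was 1.21 to 1.35 in Irf4 null and 1.31 to 1.41 in wild type.

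The remaining lactate members showed no call. Ldhb, the subunit that favours pyruvate formation, read 238 to 340 in Irf4 null and 274 to 367 in wild type (log2 fold change -0.08, adjusted p = 0.842). Slc16a1 (MCT1), which carries lactate across the membrane, read 1741, 2015, 3263 and 1596 in Irf4 null, against 1533, 2506, 1347 and 2025 in wild type. Irf4 null array 3 stood above the rest, and the log2 fold change was 0.20 ± 0.23 (adjusted p = 0.731). That array also had the highest mean log2 value of erythroid markers, 11.5 against 8.45 to 9.88 on the others. Its T cell marker mean was the highest too, at 9.97 against 7.08 to 8.65. The part of these cells in the Slc16a1 value was not tested. Slc16a3 (MCT4), the exporter of strongly glycolytic cells, read 9.75, 82.7, 37.9 and 50.3 in Irf4 null, against 52.8, 45.9, 50.7 and 36.6 in wild type, and was too dim to be tested.

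Pyruvate entry into the mitochondrion is set by pyruvate dehydrogenase, which the Pdk kinases switch off. Its subunit genes Pdha1 and Pdhb had the narrowest intervals of the group of 5. Pdha1 read 2515 to 2833 in Irf4 null and 2330 to 2684 in wild type (log2 fold change 0.06, adjusted p = 0.752). Pdhb read 4032 to 4159 in Irf4 null and 3820 to 4216 in wild type (log2 fold change 0.06, adjusted p = 0.716). The kinases did not pass either: Pdk1, a Hif1a target, was at 0.16 on the log2 scale (adjusted p = 0.630) with all 3 further probe sets of the same sign, Pdk2 of -0.02 (0.973) and Pdk3 of 0.02 (0.969).

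Among the other pentose phosphate members, Pgls and Pgd act in the oxidative branch that yields NADPH, and Tkt and Taldo1 exchange carbon units with glycolysis. Pgls read 2972, 2519, 2574 and 2434 in Irf4 null, against 2314, 2456, 2228 and 2401 in wild type, with overlap (log2 fold change 0.16, adjusted p = 0.366). Pgd read 3148, 4224, 3692 and 3504 in Irf4 null, against 3390, 3959, 2755 and 3077 in wild type (log2 fold change 0.15, adjusted p = 0.596). Tkt read 10985 to 16486 in Irf4 null and 11899 to 16575 in wild type (log2 fold change 0.06, adjusted p = 0.888). Taldo1 read 7455, 7179, 8400 and 7821 in Irf4 null, against 6252, 8550, 5988 and 6529 in wild type, where wild-type array 2 was the highest of all (log2 fold change 0.19, adjusted p = 0.423). Rpia therefore fell while the other 4 tested members of the pathway lay between 0.06 and 0.19 and did not pass; the difference between Rpia and them was not tested.

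Hif1a, which switches on many glycolytic genes when oxygen is low, read 4561, 4833, 4971 and 5638 in Irf4 null, against 5390, 5017, 5746 and 6072 in wild type. The ranges overlapped, and the log2 fold change was -0.15 ± 0.09 (adjusted p = 0.410). Its transcript is not a measure of the protein, whose level is set by degradation. For genes that share sequence with pseudogenes or paralogs (Pgk1, Aldoa, Tpi1, Tkt, Pgd and Hk3 were read from probe sets with the suffix x), part of the signal may come from related transcripts.

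**Figure D3:**
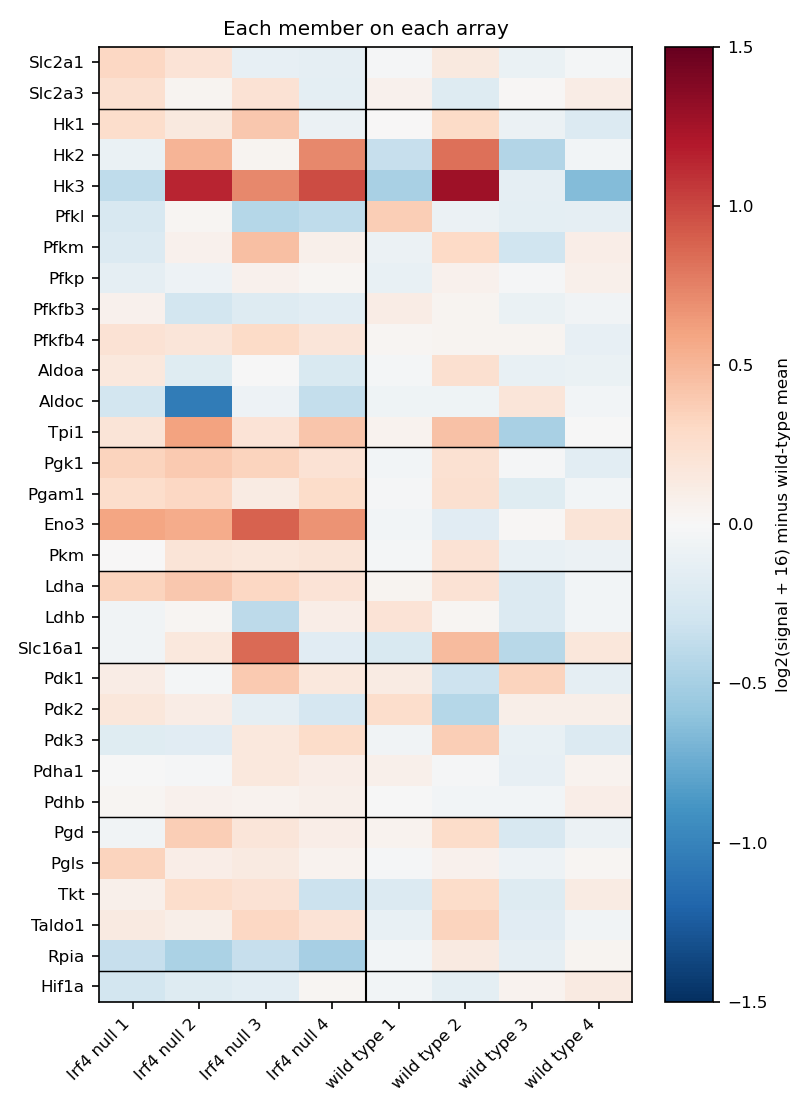
Each of the 31 tested members on each of the 8 arrays, as log2(signal + 16) minus the wild-type mean, Irf4 null arrays left of wild-type arrays and steps of the pathway divided by lines. Eno3 is red and Rpia blue on all 4 Irf4 null arrays, and wild-type array 2 is red for Hk2, Hk3 and Taldo1 as are several Irf4 null arrays.

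Single arrays moved several members together. Wild-type array 2 was the highest of the 8 arrays for 8 of the 31 members, and Irf4 null array 3 for 7. Wild-type array 3 was the lowest for 11. Relative to the wild-type mean, the median member on wild-type array 2 was 0.14 higher on the log2 scale, against 0.07, 0.10, 0.16 and 0.08 on Irf4 null arrays 1 to 4 and -0.02, -0.11 and -0.04 on wild-type arrays 1, 3 and 4. Without wild-type array 2, Pgk1 (log2 fold change 0.39, adjusted p = 0.00915), Ldha (0.38, 0.0184), Pgam1 (0.32, 0.0338) and Taldo1 (0.30, 0.0371) were called higher along with Eno3, which gave 5 members higher and 1 lower. In that fit 4.80% of all probe sets were called higher and 3.23% lower, so the background grew as well. The wild-type arrays left in it were all Xist-high, while the Irf4 null arrays were of both kinds. In a limma fit of all 8 arrays with a term for Xist-high arrays, Pgk1 was at 0.25 (adjusted p = 0.237) and Ldha at 0.25 (0.292). The same fit put Pgam1 at 0.17 (0.507) and Taldo1 at 0.06 (0.862).

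Wild-type array 2 is also the single Xist-low wild-type array, and the members were therefore set against the Xist classes. The same array read 12829 for Jchain and 13981 for Igha, against 2222 to 2767 and 3123 to 5229 on the other wild-type arrays. Prdm1, Xbp1 and Mzb1 were also highest there, while Sdc1 (198, against 345 to 611) and Irf4 were the lowest of the wild type. The part of plasma cell RNA in the member values of that array was not tested. Xist class cannot be told apart in these arrays from the level of myeloid, NK cell or dendritic cell markers. In a fit with terms for genotype and Xist class, Hk3 was lower on Xist-high arrays by a log2 difference of -1.51 ± 0.17 (limma, adjusted p = 0.00173). It was the only member called, where 1.86% of all probe sets were lower and 0.207% higher. Hk2 fell short of the threshold at -0.81 ± 0.20 (adjusted p = 0.0683). For 5 members all Xist-high arrays lay below all Xist-low arrays, against 5.38% of all probe sets, and for none above, against 3.96%. Hk3 read 177 to 260 on Xist-high arrays and 484 to 714 on Xist-low arrays. Hk2 read 301 to 402 on Xist-high arrays and 428 to 749 on Xist-low arrays. The others were Tpi1, whose ranges nearly met, Pkm with 800 to 867 on Xist-high arrays and 970 to 1008 on Xist-low arrays, and Pgd with 2755 to 3390 on Xist-high arrays and 3504 to 4224 on Xist-low arrays.

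**Figure D4:**
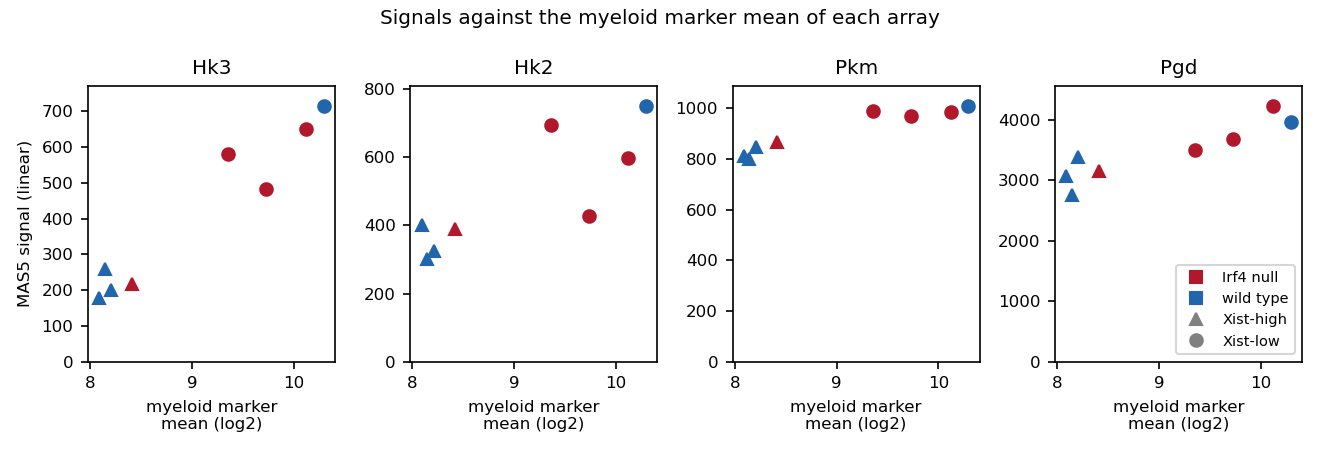
Linear signal of Hk3, Hk2, Pkm and Pgd on each array against the mean log2 value of 24 neutrophil and macrophage markers on the same array. The 4 Xist-high arrays (triangles, marker mean 8.09 to 8.41) lie to the left and below the 4 Xist-low arrays (circles, 9.36 to 10.3), with both genotypes in each cluster.

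Of the neutrophil markers 11 of 13 were tested, with summed signals of 11069 to 74107 in Irf4 null and 5902 to 54074 in wild type. For monocytes and macrophages 13 of 14 were tested, with sums of 16047 to 33784 in Irf4 null and 11436 to 39165 in wild type. No marker of either list was called between the genotypes. With the mean of these markers as a term in the fit, the Irf4 null effect was 0.03 for Hk3 (adjusted p = 0.962) and -0.02 for Hk2 (adjusted p = 0.980), against 0.62 and 0.29 without the term.

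With the Xist class as a term, the Irf4 null effect on Hk3 was -0.14 (adjusted p = 0.797) and that on Hk2 was -0.11 (adjusted p = 0.871), while the median of the members was 0.022. Eno3 and Rpia kept their calls in that fit (log2 fold change 0.70, adjusted p = 0.0204, and -0.44, adjusted p = 0.0351), where 1.41% of all probe sets were called higher and 0.947% lower. Within Xist-high arrays alone (1 Irf4 null and 3 wild type) Eno3 was at 0.53 (adjusted p = 0.286) and Rpia at -0.30 (0.395). Within Xist-low arrays (3 Irf4 null and 1 wild type) Eno3 was at 0.87 (0.0558) and Rpia at -0.58 (0.0657). A group with a lone array was assumed to vary like the others, and neither gene passed within a class. A test of the difference in genotype effect between the classes rests on 1 lone array in each class. It called 0 members and 0 probe sets (limma interaction term, 3 members at an unadjusted p under 0.05), which does not show that the classes were alike.

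Neighbouring genes of the same pathways were counted from lists that had been written with earlier results of these data known. Of 13 other glycolysis genes tested, 1 rose and 2 fell, where 2.01% of all probe sets were called higher and 1.51% lower. Their median log2 fold change was 0.066, against 0.025 over all genes, and with the Xist class as a term 1 was called higher and 0 lower. Pgm2, which interconverts phosphorylated sugars, read 718, 978, 819 and 829 in Irf4 null, against 415, 632, 406 and 477 in wild type. The groups did not overlap, and the log2 fold change was 0.79 ± 0.15 (adjusted p = 0.0161). Leaving out any of Irf4 null arrays 2 and 4 or wild-type arrays 1, 3 and 4 gave an adjusted p of 0.0511 to 0.0571 for Pgm2. Of 25 alternative settings of the processing, Pgm2 kept its call in 18.

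Gpd2, the mitochondrial glycerol 3-phosphate dehydrogenase, read 2315, 2043, 2164 and 1916 in Irf4 null, against 3086, 2415, 2775 and 2884 in wild type (log2 fold change -0.40 ± 0.09, adjusted p = 0.0420). Gpd1l, a relative of the cytosolic form, read 3831, 2778, 3413 and 2399 in Irf4 null, against 5258, 4003, 4726 and 4691 in wild type (log2 fold change -0.60 ± 0.14, adjusted p = 0.0405). Both were lower on every Irf4 null array. Of the same 25 settings, Gpd2 kept its call in 10 and Gpd1l in 11. Their calls were lost with the Xist class as a term (adjusted p = 0.131 for Gpd2 and 0.109 for Gpd1l). They were lost also without any of Irf4 null arrays 2, 3 and 4 or wild-type arrays 1, 3 and 4, with adjusted p of 0.0779 to 0.131 for Gpd2 and 0.0547 to 0.124 for Gpd1l.

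Among 13 tested Hif1a targets outside glycolysis 1 rose and 1 fell, against the same 2.01% and 1.51% of all probe sets. Their log2 fold changes lay on both sides of 0, from -0.44 to 1.47, with a median of 0.20, against 0.025 over all genes. With the Xist class as a term 1 was called higher and 0 lower. Bhlhe40, a transcriptional repressor with many other inputs, read 1604, 1536, 1477 and 1586 in Irf4 null, against 507, 319, 618 and 897 in wild type. The groups did not overlap, and the difference had the smallest adjusted p in these lists, at 1.47 ± 0.24 on the log2 scale (adjusted p = 0.00659). Kdm3a, a histone demethylase, read 2121, 1783, 1863 and 1847 in Irf4 null, against 2545, 2155, 2558 and 2578 in wild type (log2 fold change -0.37 ± 0.09, adjusted p = 0.0467). The Kdm3a call was lost with the Xist class as a term (adjusted p = 0.140) and without the same 6 arrays as for Gpd2 (0.102 to 0.141). Kdm3a kept its call in 11 of the 25 alternative settings. None was called among 11 other lactate and pyruvate genes (median -0.11), 8 other pentose phosphate and ribose genes (0.063), 19 TCA cycle genes (0.050), 7 Hif regulators (0.0053) or 19 growth and nutrient regulators (-0.079). An unadjusted p under 0.05 was reached by 1, 0, 6, 0 and 3 genes of these lists in the same order, where 20.4% of all genes reached it.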

How the data were processed

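Gene expression was measured in 8 samples, 1 Affymetrix array each, from 6 µg of total RNA per the labels. The deposited table gives a linear intensity for each probe set, and per the submitters' processing notes the authors used MAS5. The MAS5 version and the scaling target: not given in the sources used here. The table has no detection calls, so how far a dim signal lies above background is unknown. Each array had the same mean after the highest and lowest 2% of probe sets were removed, so no further normalization was applied.

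After removal of 64 control probe sets, log2(signal + 16) was computed, and the lowest 40% by mean log2 value (up to 5.88, a signal of 42.9) were dropped, leaving 27022. The added 16 understates fold changes of dim probe sets. The genotype contrast was fitted in R 4.3.3 with limma 3.58.1 (lmFit and trended eBayes). P-values were adjusted by Benjamini-Hochberg across these 27022, and the threshold was 0.05. The script was tested on simulated data. Gene names came from the platform annotation (34958 with 1 symbol, 932 with several, 9211 unnamed here), with symbols updated through the RefSeq table of GRCm38.p6 for 34754. Figures were drawn with matplotlib 3.10.9.

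The named genes were all members and Irf4, and up to 4 called members of each of 7 further pathway lists. The members and lists were chosen with earlier results of these data known. Arrays with an Xist signal over 1000 were called Xist-high. Of the marker lists not given in the report, T cell (9 tested), dendritic cell (6) and erythroid (6) had no call, and of 8 NK cell markers Prf1 was higher. Alternatives were other pseudocounts, dim filters, normalizations, variance models and thresholds, array weights, a block for the labels' replicate number, leaving out arrays in turn, Xist, marker and myeloid terms, the mean of a gene's probe sets, and the Gapdh controls kept in the fit. Replicate numbers are in the labels, and the deviations of same-numbered arrays had correlations of 0.237 and 0.277 for numbers 1 and 2, whose arrays share an Xist class, and -0.0301 and -0.0807 for numbers 3 and 4. Since not every pair deviated together, the numbers were not taken as pairs.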

Additional observations from a re-analysis of the deposited data

Results flagged for a closer look

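For 4 members a single array stood apart from the other 3 of its genotype, with a gap beyond Dixon's 95% critical value for 4 samples, taken as a share of the group's whole range on the log2 scale. Pkm read 867 on Irf4 null array 1 and 970 to 990 on the others, a gap of 0.849 of the range. Pfkl read 289 on wild-type array 1 and 198 to 207 on the others (0.892). Pfkfb4 read 515 on wild-type array 4 and 576 to 581 on the others (0.923). Aldoc read 499 on wild-type array 3 and 419 to 426 on the others (0.901). Chance gives about 1 such group in 20, and 62 groups were examined, so 4 is close to that number. Irf4 null array 1 is also the single Xist-high array of its genotype.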

How the results depend on the processing

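Across 25 alternatives, Eno3 kept its direction in all and its call in 23, and Rpia kept its direction in all and its call in 19. The settings that ended the Eno3 call were the fits within each Xist class. They ended the Rpia call too, as did the model with no variance trend (adjusted p = 0.0684) and 3 of the left-out arrays. The stricter threshold of 0.01, which is not among the 25, also ended the Rpia call (limma, adjusted p = 0.0164 in the main fit). Of 773 values of members under alternatives, 70 changed sign, all for members that were not called, 8 lost a call and 7 gained one.

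Members called higher numbered 3 with array weights (with Pgk1, adjusted p = 0.0179, and Ldha, 0.0329), 0 within either Xist class and 1 to 5 when each array was left out. Members called lower numbered 0 at an adjusted p under 0.01, 0 with no variance trend, 0 within either class and 0 to 1 when each array was left out. With the replicate block, 2 members were called higher (Pgk1 at 0.32, adjusted p = 0.0444), and the numbers were not taken as pairs. Probe sets called higher and lower, 543 and 407 as reported, numbered 1001 and 745 with array weights, 213 and 117 at 0.01, 355 and 200 with no trend, 170 and 85 within Xist-high arrays, and 155 and 109 within Xist-low arrays. Those called lower numbered 256 with the Xist term and 268 with the marker term. Leaving out each array gave 278 to 1297 higher and 179 to 874 lower.

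The sign changes below are all of uncalled log2 fold changes, and their cause was not tested. With the Xist term they were Pgd -0.011, Tkt -0.025, Slc16a1 -0.041, Pfkm -0.10, Hk2 -0.11, Hk3 -0.14, Pdk3 -0.17 and Pdk2 0.18. With the marker term they were Pgd -0.022, Hk2 -0.059, Tkt -0.10, Pfkm -0.13, Hk3 -0.14, Pdk3 -0.15, Slc16a1 -0.15 and Pdk2 0.18. The myeloid term gave Slc16a1 -0.0065, Hk2 -0.018, Pfkm -0.045, Tkt -0.050, Pdk3 -0.11 and Pdk2 0.12. Within Xist-high arrays they were Pdha1 -0.012, Pdk3 -0.064, Pfkm -0.11, Pdk2 0.029, Pfkfb3 0.083 and Aldoa 0.24. Within Xist-low arrays they were Tpi1 -0.028, Pkm -0.037, Pgd -0.061, Pfkm -0.093, Hk1 -0.13, Taldo1 -0.14, Slc2a1 -0.16, Slc16a1 -0.19, Tkt -0.22, Pdk3 -0.28, Hk3 -0.32, Hk2 -0.40, Hif1a 0.034 and Pdk2 0.34, and the median of the members was -0.061. A common median gave Pdha1 -0.013, Slc2a1 -0.0083, Pdhb -0.018, Tkt -0.016 and Pdk3 -0.052, and quantile normalization gave Pdk3 -0.0023. The mean of all probe sets gave Pfkp 0.0031, Aldoa 0.00084, Pfkfb3 0.10 and Ldhb 0.20. With each array left out, values ran from -0.016 to 0.13 for Slc2a1, -0.068 to 0.0038 for Pfkp, -0.011 to 0.18 for Tkt, -0.019 to 0.20 for Pfkm, -0.019 to 0.36 for Slc16a1, -0.067 to 0.14 for Pdk3, -0.17 to 0.064 for Pdk2, -0.14 to 0.028 for Ldhb and -0.14 to 0.018 for Aldoa. Pfkm and Pdk2 could not be tested with the lowest 60% dropped. With no detection calls, how far the dim Slc16a3 and Pdk2 signals lie above background is unknown.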
